A study of Mus musculus with 8 samples.

Results

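Metallothioneins and the genes that move zinc across membranes were examined in lymphatic endothelium, the lining of lymph vessels, sorted out of mouse ears. The group was defined by name and held 10 genes, the metallothioneins Mt1 and Mt2, the zinc-sensing transcription factor Mtf1, the importers Slc39a14, Slc39a8, Slc39a1, Slc39a6 and Slc39a10, and the exporters Slc30a1 and Slc30a5. These are 10 of the 18193 genes that a probe set of the array names alone, and 24 of 34945 such probe sets belong to them. Inflamed samples came from female FVB mice that met the contact allergen oxazolone on the skin at 2% and, 5 days later, on the ears at 1%. Their ears were taken 24 hours after the challenge, a model of contact hypersensitivity. Untreated samples came from ears of healthy female FVB mice without the allergen. The labels name no genetic alteration in either group. There were 4 samples per group, each a pool of cells from 3 mice aged 8 to 10 weeks, and the design text joins them into 4 pairs of 1 inflamed and 1 untreated sample sorted and extracted on 1 day. Cells were sorted as CD31-positive, podoplanin-positive and CD45-negative. The labels do not say whether untreated mice received the solvent.

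Metallothioneins are small, cysteine-rich proteins that bind zinc and copper in the cytosol and release them again. Their genes are switched on by MTF1, which binds metal response elements in promoters when free zinc is high, and glucocorticoids and inflammatory cytokines also raise them. Proteins of the SLC39 (ZIP) family carry zinc into the cytosol from outside the cell or from organelles, and those of the SLC30 (ZnT) family carry it out of the cytosol or into organelles.

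Mt2 and Mt1 are neighbouring genes on the plus strand of chromosome 8, and their promoters are shown because both genes were called higher. The promoter of Slc30a1, which is known in the mouse as a gene switched on by MTF1, is shown beside them. The letters are the 250 bases before an annotated RefSeq start on build GRCm38.p6, 5′ to 3′, with each match to the core of the metal response element (TGCACNC or TGCGCNC, on either strand) in capitals.
Mt1, chr8:94178839-94179088, plus strand: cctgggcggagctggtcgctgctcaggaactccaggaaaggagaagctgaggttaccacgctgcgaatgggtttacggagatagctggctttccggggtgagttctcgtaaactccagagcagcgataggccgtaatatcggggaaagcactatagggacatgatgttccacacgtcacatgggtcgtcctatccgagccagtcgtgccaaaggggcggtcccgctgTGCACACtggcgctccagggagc
Mt2, chr8:94172368-94172617, plus strand: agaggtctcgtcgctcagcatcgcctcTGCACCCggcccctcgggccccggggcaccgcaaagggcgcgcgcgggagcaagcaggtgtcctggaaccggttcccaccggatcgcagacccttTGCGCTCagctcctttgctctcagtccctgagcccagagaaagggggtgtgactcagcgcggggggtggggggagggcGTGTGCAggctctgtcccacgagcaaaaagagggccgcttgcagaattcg
Slc30a1, chr1:191906531-191906780, plus strand: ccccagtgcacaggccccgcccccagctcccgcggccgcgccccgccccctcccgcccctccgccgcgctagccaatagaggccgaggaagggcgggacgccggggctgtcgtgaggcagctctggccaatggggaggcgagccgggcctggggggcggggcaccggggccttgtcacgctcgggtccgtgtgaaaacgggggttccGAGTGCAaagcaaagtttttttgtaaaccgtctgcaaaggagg
The Mt2 sequence held 3 matches, 2 on the shown strand and 1 on the other. The Mt1 and Slc30a1 sequences held 1 match each. At least 1 match was present in 21.4% and at least 3 in 1.26% of 32851 promoter windows of the same length. With the next 50 bases after the start included, Mt2 held 4 matches, Mt1 3 and Slc30a1 2, where 0.517%, 1.97% and 7.11% of all windows held at least that many. RefSeq windows were read for 8 of the 10 genes. None was found for Slc39a14, and Slc39a6 was left out by rule. Slc30a5 held 1 match, as did 1 of the 2 windows of Slc39a8, and those of Mtf1, Slc39a1 and Slc39a10 held 0 within either length. A match is a description of letters and not a measured binding site, and where transcripts of a gene start at several places each window covers 1 of them.

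Signal was strong enough to test all 10 genes. Arrays of the series had mean signals of 126.2 to 160.4, and 53.5% to 62.6% of probe sets exceeded a background ceiling that lay between 2.53 and 3.31 on the log2 scale. The ceiling of an array is the 95th percentile of its bacterial control probe sets. The lymphatic genes Lyve1 and Flt4 averaged 11.96 and 11.93 in inflamed and 12.14 and 12.30 in untreated samples on the log2 scale, and the lymphatic fate regulator Prox1 9.73 and 11.17. All 9 measured of 10 lymphatic markers exceeded the ceiling on every array, with 0 called higher and 3 lower (Mmrn1, Reln and Tie1). Median log2 signal was lower in all 4 inflamed samples, at 3.27 to 3.44 in inflamed and 3.56 to 3.74 in untreated samples. Of the genes used for sorting, Pdpn (podoplanin) averaged 12.00 in inflamed and 11.44 in untreated samples and Pecam1 (CD31) 9.78 and 10.50. Ptprc (CD45) exceeded the ceiling on 3 of 4 inflamed and 0 of 4 untreated arrays and was too dim to be tested. Among marker lists of other cells, the sum of the neutrophil list separated the groups, and the sums of the other lists overlapped. The summed signal of 11 measured of 14 neutrophil markers was 2001 to 3524 in inflamed and 209.1 to 651.2 in untreated samples, higher in 4 of 4 pairs. The genes of this list did not move alike. Its brightest in inflamed samples were Lcn2, S100a9 and S100a8, at means of 10.3, 9.6 and 8.5 on the log2 scale. S100a8 and S100a9 exceeded the ceiling on 4 of 4 inflamed and 1 of 4 untreated arrays. Camp and Clec4d exceeded it on 3 and 1, Cxcr2 on 3 and 0 and Csf3r on 2 and 0. Mpo did so on 1 and 1, Ngp on 0 and 1 and Elane on 0 and 2, and Ltf was under the ceiling on all 8 arrays. The sum of 11 of 12 keratinocyte markers was 300.5 to 2302 in inflamed and 1250 to 5038 in untreated samples, and that of 11 fibroblast markers 12051 to 25851 and 7054 to 22401. Sums of 13 monocyte and macrophage markers were 759.4 to 1942 in inflamed and 498.1 to 1153 in untreated samples, and those of 10 blood endothelial markers 2748 to 5172 and 2921 to 4305. T cell markers (7 of 9) summed to 96.7 to 538.8 and 302.8 to 446.3, and 10 pericyte and smooth muscle markers to 516.4 to 1115 and 225.8 to 2259. Single genes differed where sums overlapped. Of 9 tested keratinocyte markers, 8 were lower in inflamed samples and 1 higher. Krt5 differed by -3.53 on the log2 scale, with 3 of 4 inflamed arrays above the ceiling. Krt10 differed by -5.99 with 1 of 4 above it, so the size is uncertain. No inflamed array exceeded the ceiling for Krt15, which was at least 9.99-fold lower. The inflamed means of Krt10 and Krt15, 2.70 and 1.45, lay under the filter. Untreated values alone carried Krt10 and Krt15 into the test. Of 8 tested blood endothelial markers, 6 were higher and 2 lower, with Selp and Car4 at 6.62 and 5.69 and Aqp1 at -1.63. Selp exceeded the ceiling on 2 and Car4 on 1 of 4 untreated arrays, so the sizes of their changes are uncertain. The untreated means of Selp and Car4, 2.17 and 2.54, lay under the filter. Inflamed values alone carried Selp and Car4 into the test. Gapdh, read at both ends of its transcript as a sign of RNA quality, had a mean 3'/5' ratio of 3.06 in inflamed and 3.85 in untreated samples on the log2 scale, lower in 4 of 4 pairs. The same ratio for Actb was -0.07 in inflamed and -0.08 in untreated samples, higher in 2 of 4 pairs. For the neutrophil sum and for the Gapdh ratio, exact sign-flip permutation of the pairs (two-sided) gave p = 0.13, the smallest that 4 pairs allow. For the Actb ratio the same permutation gave p = 0.75. The calls of Mt1, Mt2 and Slc39a14 given below held with array medians set equal, and the part of these cells and of RNA quality in the results was not tested. In such pools, a change in which cells were sorted and a change of RNA per cell cannot be told apart.

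In inflamed samples Mt1, Mt2 and the importer Slc39a14 rose, and the other 7 genes did not pass the test. Mt2 was 29.4-fold, Mt1 16.95-fold and Slc39a14 6.32-fold higher as geometric means of 4 pairs. The 2 exporters showed the smallest changes, and none of the 10 genes was called lower. A gene is called at an adjusted p under 0.05 in limma with the pair as a block, adjusted over all 10843 genes tested. By that rule 6.94% of all genes were called, 3.91% higher and 3.02% lower, and of these 10 genes 3 were higher and 0 lower. The median change was 1.11 over the 10 genes and -0.09 over all genes, on the log2 scale as inflamed minus untreated. Of the 10 genes, 6 were higher in all 4 pairs, as were 13.6% of all genes. Groups did not overlap, with inflamed above untreated, for 4 of the 10 and for 6.30% of all genes.

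**Figure D1:**
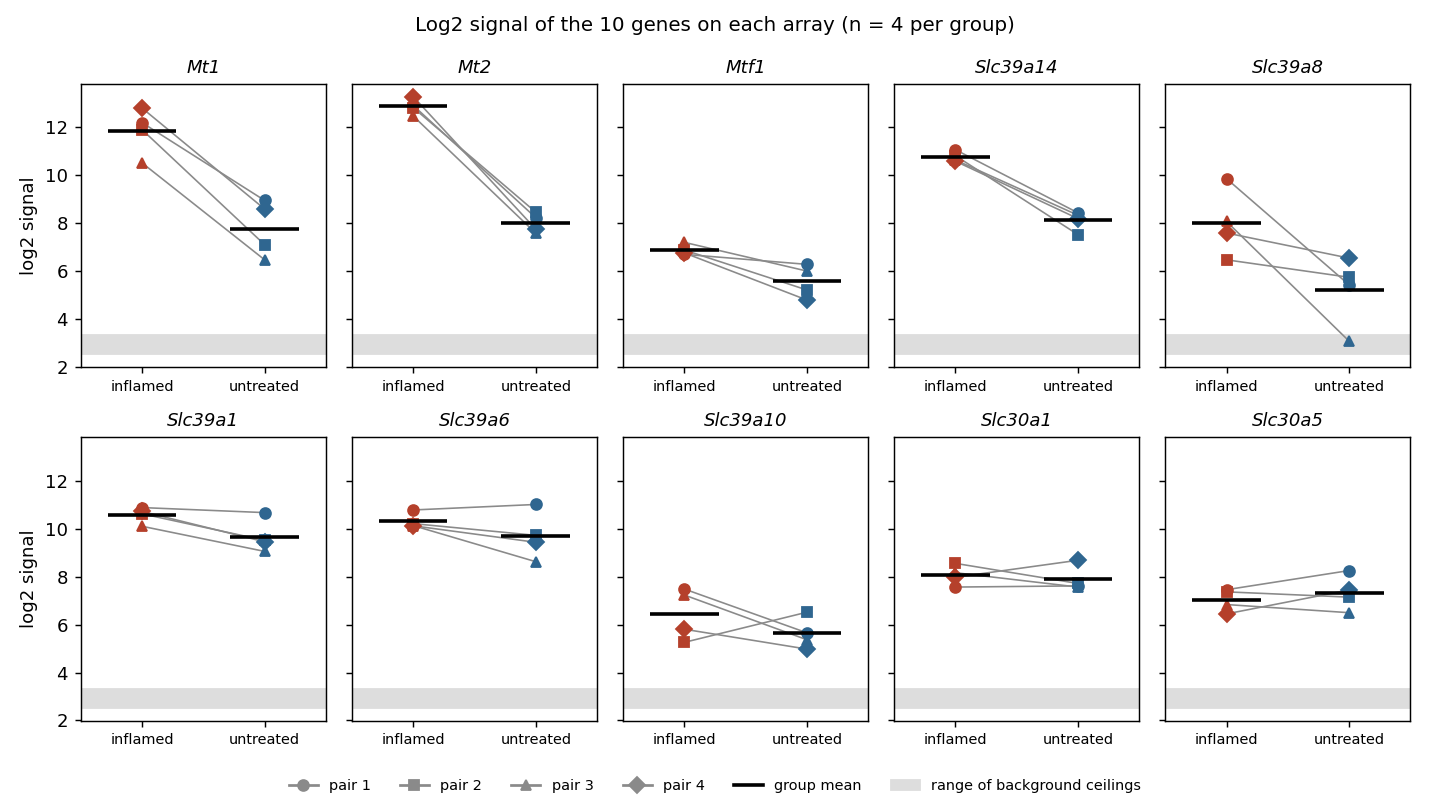
Log2 signal of each gene's most intense probe set on every array, inflamed left and untreated right. Lines join samples of a pair, black bars are group means (n = 4), and the grey band is the range of background ceilings. The inflamed and untreated points of Mt1, Mt2, Mtf1 and Slc39a14 do not overlap.

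Mt2 had a log2 signal of 12.92, 12.83, 12.48 and 13.29 in inflamed samples 1 to 4, against 8.23, 8.46, 7.58 and 7.75 in untreated samples 1 to 4. All inflamed samples were high and close to each other, and the groups were well apart. The group means were 12.88 ± 0.33 for inflamed and 8.00 ± 0.41 for untreated ears (SD, n = 4). The change of 4.88 ± 0.22 (SE) had an adjusted p of 1.54e-05 in limma, the 2nd smallest p of all genes. The standard error here and below is the moderated one of the fit. Within pairs Mt2 differed by 4.70, 4.37, 4.90 and 5.55.

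Mt1 had a log2 signal of 12.20, 11.91, 10.52 and 12.81 in inflamed samples, against 8.95, 7.10, 6.47 and 8.59 in untreated samples. Sample 3 was the lowest of both groups, and the lowest inflamed sample still lay above the highest untreated one. The means were 11.86 ± 0.97 for inflamed and 7.78 ± 1.18 for untreated ears (SD, n = 4), so samples of 1 group were spread more widely for Mt1 than for Mt2. The change was 4.08 ± 0.28 (SE; adjusted p = 0.000115, limma), with differences of 3.25, 4.80, 4.06 and 4.22 within pairs. The name of this probe set, 1422557_s_at, ends in a suffix used by the array's maker for probe sets that can match more than 1 transcript, so signal from a related metallothionein cannot be told apart from that of Mt1.

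A second Mt1 probe set, 1451612_at, was dim in untreated ears. It read 4.09, 9.13, 5.88 and 6.87 in inflamed samples, against 2.74, 0.86, 0.31 and 1.31 in untreated samples. No untreated array exceeded its ceiling, so only a bound holds, and this probe set was at least 11.5-fold higher in inflamed samples (adjusted p = 0.0258 over 22519 probe sets, limma). Both Mt1 probe sets therefore had all inflamed samples above all untreated ones. The untreated mean of 1451612_at, 1.30, lay under the filter on dim probe sets, so its inflamed values alone carried it into the test.

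Over the 8 arrays, with each gene centred on its own mean, the patterns of Mt1 and Mt2 differed by a root mean square of 0.912 on the log2 scale. Values were not scaled, so the size of a change enters this distance, and shared regulation was not tested. There were 16 tested genes nearer to Mt1 than Mt2 was, and 30 nearer to Mt2 than Mt1 was. The nearest to Mt1 were Chil1, a chitinase-like secreted protein, at 0.475, the chemokine receptor Cxcr4 at 0.565 and the transcription factor Tox2 at 0.608. The nearest to Mt2 were the guanylate-binding protein Gbp3 at 0.510 and the monocyte-attracting chemokines Ccl7 at 0.535 and Ccl9 at 0.570.

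Mtf1, the factor that couples zinc to metallothionein transcription, was not called. It read 6.70, 6.88, 7.20 and 6.76 in inflamed samples, against 6.28, 5.21, 6.0 and 4.79 in untreated samples. The groups did not overlap on this most intense probe set, and the untreated samples were more spread. The difference of 1.31 (95% interval 0.03 to 2.59) had an adjusted p of 0.215 in limma.

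The 5 probe sets of Mtf1 did not move alike. The probe set 1429170_a_at read 5.15, 6.06, 2.89 and 4.65 in inflamed samples, against 6.75, 6.66, 5.50 and 7.23 in untreated samples, with within-pair differences of -1.60, -0.61, -2.61 and -2.58. Its mean difference was -1.85, opposite in sign to that of the most intense probe set (adjusted p = 0.146 over 22519 probe sets, limma). Of the other three, 1428979_at and 1418333_at differed by 0.11 and 0.42, and 1452990_at, which lay under the filter on dim probe sets, by 1.83. With the 4 probe sets that passed the filter averaged, the difference of Mtf1 was -0.00255, so no direction holds for this gene.

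**Figure D2:**
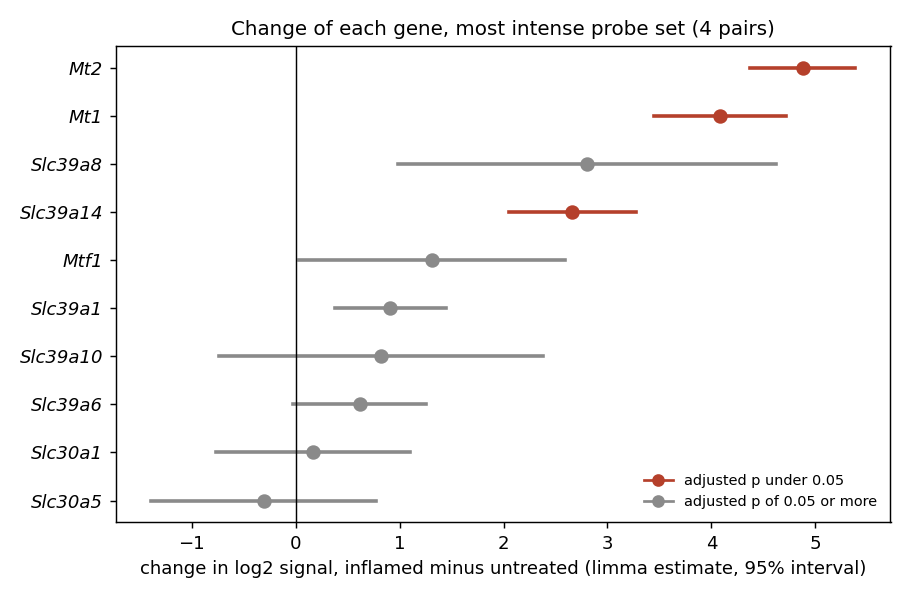
Change in log2 signal, inflamed minus untreated, for the most intense probe set of each gene. Points are limma estimates over 4 pairs and lines their 95% intervals. Mt2, Mt1 and Slc39a14, in red, have an adjusted p under 0.05, and the intervals of Slc30a1 and Slc30a5 span 0.

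Among the 5 importers only Slc39a14 was called. Its protein carries iron and manganese as well as zinc, and in mouse liver it is known to be raised by interleukin 6. Slc39a14 had a log2 signal of 11.07, 10.82, 10.64 and 10.59 in inflamed samples, against 8.43, 7.52, 8.33 and 8.19 in untreated samples. The 4 inflamed samples lay within a narrow range and clear of all untreated ones. The change was 2.66 ± 0.27 (SE; adjusted p = 0.000890, limma).

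The other three Slc39a14 probe sets were also higher in all 4 pairs. The probe set 1427035_at read 10.26, 10.24, 9.55 and 10.38 in inflamed samples, against 6.53, 3.84, 5.01 and 5.55 in untreated samples, a change of 4.88 ± 0.50 (SE; adjusted p = 0.000864 over 22519 probe sets, limma). For 1425649_at the values were 6.70, 7.57, 8.21 and 7.55 in inflamed samples, against 2.63, 3.37, 4.19 and 4.48 in untreated samples, a change of 3.84 ± 0.63 (SE; adjusted p = 0.00821). For 1457770_at they were 6.83, 6.75, 7.73 and 7.59 in inflamed samples, against 2.04, 3.69, -0.46 and 0.96 in untreated samples, with 1 of 4 untreated arrays above its ceiling (adjusted p = 0.00938). The untreated mean of 1457770_at, 1.56, lay under the filter on dim probe sets, so its inflamed values alone carried it into the test. All 4 probe sets separated the groups. The change was 2.66 and 4.88 on the 2 probe sets above the ceiling on all 8 arrays. It was 4.26 for the mean of all 4, more than 1.5 times that of the most intense one, but this mean includes untreated values of 1457770_at and 1425649_at under the ceiling, so its size is uncertain.

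The genes nearest to Slc39a14 in pattern over the 8 arrays were Stom, a membrane protein of the stomatin family, at a root mean square difference of 0.275, Sting1, an innate immune sensor of cyclic dinucleotides, at 0.314 and the syntaxin Stx11 at 0.334. The changes of Stom, Sting1 and Stx11, 2.62, 2.50 and 2.37, were close in size to that of Slc39a14. Slc39a14 differed from Mt1 by 1.14 and from Mt2 by 1.22, and 1194 and 1734 tested genes were nearer. Its smaller change than those of Mt1 and Mt2 enters these distances.

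Slc39a8, which carries zinc and manganese, showed a large mean difference with a wide spread. It read 9.86, 6.47, 8.07 and 7.59 in inflamed samples, against 5.42, 5.74, 3.07 and 6.54 in untreated samples. Pairs 1 and 3 differed by 4.44 and 4.99 and pairs 2 and 4 by 0.73 and 1.05, so all 4 pairs were higher but the groups overlapped. Untreated sample 3, at 3.07, lay under its array's ceiling of 3.14, so the size of the difference in pair 3 is uncertain. The difference of 2.80 (95% interval 0.99 to 4.62) had an adjusted p of 0.0740 in limma. A dimmer probe set, 1448482_at, lay under the filter, with 2 of 4 inflamed and 1 of 4 untreated arrays above the ceiling.

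Slc39a1, a widely expressed importer of the plasma membrane, lay just outside the threshold. It read 10.89, 10.63, 10.11 and 10.73 in inflamed samples, against 10.68, 9.52, 9.06 and 9.46 in untreated samples. Untreated sample 1 was as high as the inflamed group, and all 4 pairs were higher. The difference of 0.91 (95% interval 0.38 to 1.45) had an adjusted p of 0.0514 in limma. It passed with the stricter filter on dim probe sets (adjusted p = 0.0422), and over the 13 alternatives its adjusted p lay between 0.0131 and 0.269.

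Slc39a6 and Slc39a10, related importers whose proteins are known to form a complex, were not called. Slc39a6 read 10.79, 10.22, 10.14 and 10.13 in inflamed samples, against 11.02, 9.73, 8.63 and 9.44 in untreated samples. The groups overlapped, with pair 1 lower and the other three higher. Its difference was 0.62 (95% interval -0.03 to 1.26; adjusted p = 0.248, limma), and the other three probe sets differed by 0.67 to 1.34. Slc39a10 read 7.49, 5.26, 7.24 and 5.81 in inflamed samples, against 5.66, 6.52, 5.37 and 4.98 in untreated samples. Pair 2 went the other way, and the difference of 0.82 (95% interval -0.74 to 2.38) had an adjusted p of 0.547 in limma.

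The exporters showed little difference. Slc30a1, the zinc exporter of the plasma membrane, read 7.57, 8.56, 8.17 and 7.98 in inflamed samples, against 7.62, 7.72, 7.57 and 8.69 in untreated samples. Values of both groups were interleaved, with 2 pairs higher and 2 lower. The difference of 0.17 had a 95% interval of -0.76 to 1.10 (adjusted p = 0.863, limma), which does not reach the changes of Mt1, Mt2 or Slc39a14. A second probe set, 1422786_at, differed by 0.29. Slc30a5, which loads zinc into the secretory pathway, read 7.46, 7.37, 6.84 and 6.45 in inflamed samples, against 8.26, 7.15, 6.50 and 7.45 in untreated samples. The groups overlapped, and the difference of -0.31 (95% interval -1.39 to 0.78) had an adjusted p of 0.768 in limma.

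**Figure D3:**
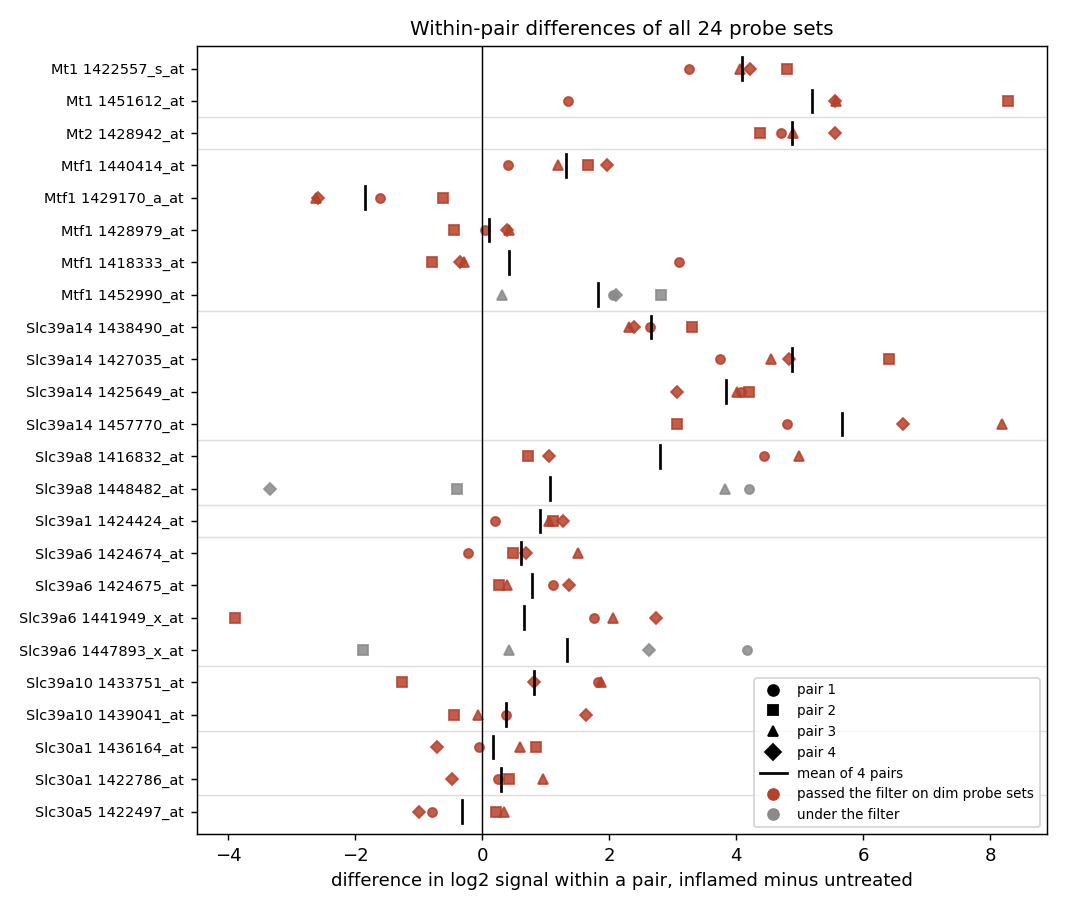
Difference in log2 signal within each of the 4 pairs, inflamed minus untreated, for all 24 probe sets. Symbols mark pairs, black ticks means, and grey symbols the 3 probe sets under the filter. Every pair of every Mt1, Mt2 and Slc39a14 probe set lies right of 0, whereas those of Mtf1 lie on both sides.

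Counted by probe set, 21 of the 24 were bright enough to be tested, and 7 of these were called higher and 0 lower. The share over all 22519 probe sets was 3.18% higher and 2.42% lower. The 7 were both of Mt1, the 1 of Mt2 and all 4 of Slc39a14. Of these, 1451612_at of Mt1 and 1457770_at of Slc39a14 averaged 1.30 and 1.56 in untreated samples, under the filter. Their inflamed values alone carried them into the test, so their entry was tied to being high in inflamed samples. Of the 24, 22 had a mean difference above 0, and the exceptions were 1 of Mtf1 and that of Slc30a5. The median change over the 22519 tested probe sets was -0.13. Many of the 24 share a gene, so they are not independent.

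The rest of the zinc transport families gave no call in the fit used here. Of 9 other ZIP importers, 6 were tested, with 0 called higher and 0 lower at a median change of -0.53. Slc39a4, known in humans as the intestinal zinc importer, read 3.46, 4.71, 5.62 and 3.53 in inflamed samples, against 5.46, 7.61, 6.78 and 8.82 in untreated samples. It was lower in all 4 pairs, as were 15.5% of all genes, with a difference of -2.83 (95% interval -4.57 to -1.10) that did not pass (adjusted p = 0.0609, limma). It passed only when the probe sets of each gene were averaged across the array (adjusted p = 0.0401), 1 of 12 alternatives. Keratinocyte markers were lower in 3 of 4 pairs alongside it, and their part in this difference was not tested. Slc39a3 differed by -0.95 (adjusted p = 0.357, limma). Of 8 other ZnT exporters, 4 were tested, with 0 calls at a median change of 0.22. Slc30a9 and Slc30a4 differed by 0.25 and -0.12, with 95% intervals of -0.90 to 1.41 and -0.71 to 0.46. At an unadjusted p under 0.05, 1 of these 10 transporters passed, Slc39a4, as did 22.0% of all genes. Mt3, a metallothionein known from brain, differed by -0.10 (95% interval -1.92 to 1.71), and Mt4, known from stratified epithelium, was under the filter, with 0 of 4 inflamed and 1 of 4 untreated arrays above the ceiling.

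Metallothioneins also bind copper, and Slc39a14 also carries iron and manganese, so genes of these metals were read in the same fit. Over all genes 3.91% were called higher and 3.02% lower, the shares to set beside the counts of these lists and those below. Of 16 copper genes, 1 was called higher and 0 lower (median change 0.34). This was Steap4, a metalloreductase of copper and iron, which read 11.19, 10.65, 10.88 and 10.81 in inflamed samples, against 7.28, 8.21, 7.68 and 8.17 in untreated samples. The groups were fully apart, and the change was 3.04 ± 0.31 (SE; adjusted p = 0.000890, limma). Of 20 tested iron and manganese genes, 3 were called higher and 0 lower (median change 0.08). The manganese superoxide dismutase Sod2 rose by 2.27 ± 0.27, the siderophore-binding Lcn2 by 1.85 ± 0.39 and the ferritin heavy chain Fth1 by 0.40 ± 0.08 (SE). Lcn2 was also on the list of neutrophil markers. The call of Fth1 was lost under 6 of 13 alternatives, among them quantile normalization (adjusted p = 0.279) and leaving out pair 1, 2 or 3 (adjusted p = 0.0681, 0.0652 and 0.0665), and that of Lcn2 without pair 3 or 4 (adjusted p = 0.0905 and 0.0663). Without the intensity trend 0 genes of this list were called.

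Genes of the interleukin 6 and STAT3 axis, of the glucocorticoid response and of oxidative stress were read in the same fit. Any link of these genes to Mt1, Mt2 or Slc39a14 was not tested. Of 13 genes of the interleukin 6 and STAT3 axis, 6 were called higher and 0 lower (median change 1.22). The cytokine Il6 read 7.01, 6.09, 6.65 and 6.46 in inflamed samples, against 1.34, -0.24, -0.76 and 2.47 in untreated samples. No untreated array exceeded the ceiling, and Il6 was at least 12.0-fold higher (adjusted p = 0.00454, limma). Its untreated mean of 0.705 lay under the filter on dim probe sets, so its inflamed values alone carried it into the test. With no filter on dim probe sets, the adjusted p of Il6 was 0.00398 in limma. The feedback inhibitor Socs3 rose by 1.22 ± 0.18, the nuclear cofactor Bcl3 by 3.33 ± 0.55 and the secreted glycoprotein Lrg1 by 1.62 ± 0.32 (SE). The call of Bcl3 was lost without pair 3 (adjusted p = 0.0536) and that of Lrg1 without pair 2 or 3 (adjusted p = 0.0813 and 0.0963). Of the 13, 2 were called without pair 3, 4 without any other pair and 1 without the intensity trend.

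Of 11 tested glucocorticoid response genes, 0 were called higher and 1 lower (median change -0.17). Nr3c1, the glucocorticoid receptor, read 8.92, 8.69, 9.08 and 9.06 in inflamed samples, against 10.58, 9.85, 10.25 and 9.82 in untreated samples, all inflamed samples being lower. Its change was -1.19 ± 0.26 (SE; adjusted p = 0.0249, limma), and the call was lost without pair 1, 2 or 3 (adjusted p = 0.117, 0.0782 and 0.0994). This list had 3 calls higher and 0 lower under median centring, and 0 higher and 3 lower under quantile normalization. Median centring moved all genes up alike, so no direction is given for this list.

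Of 9 tested oxidative stress genes, 2 were called higher and 0 lower (median change 0.59). The redox protein thioredoxin, Txn1, rose by 1.29 ± 0.15 and glutathione reductase, Gsr, by 1.07 ± 0.26 (SE). The call of Gsr was lost without each pair in turn (adjusted p of 0.0822 to 0.130), that of Txn1 with its probe sets averaged (adjusted p = 0.0782), and 0 genes of the list were called without the intensity trend.

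**Figure D4:**
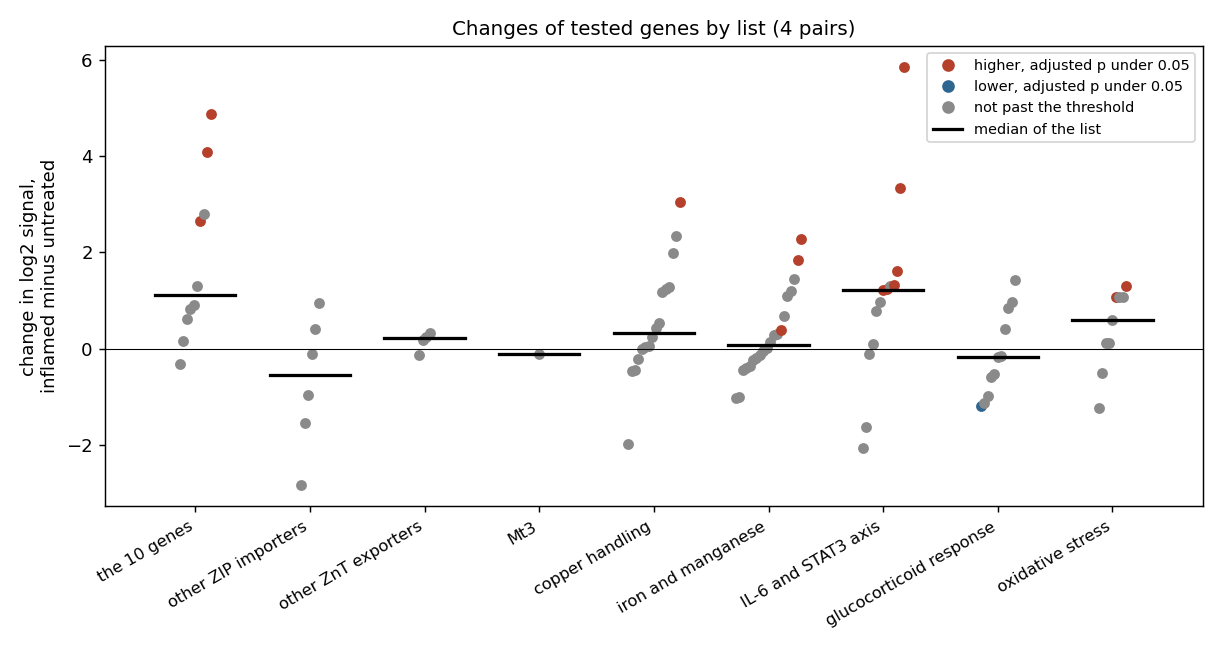
Change in log2 signal, inflamed minus untreated, of each tested gene by list, with the list's median as a bar (4 pairs). Red points were called higher and the blue point, Nr3c1, lower. The medians lie at 1.11 for the 10 genes, -0.53 for other ZIP importers and 1.22 for the interleukin 6 and STAT3 axis.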

How the data were processed

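RNA of sorted lymphatic endothelial cells was measured on 8 single-colour arrays, 4 inflamed and 4 untreated, after linear isothermal amplification per the labels' protocols. Per the design text, pairs were also picked for the quality of extracted and amplified material. The authors deposited linear intensity values, 1 for each probe set on each array, named MAS5 output in the submitters' processing notes. For MAS5, version and scaling target were not given in the sources at hand, and no detection calls were used. The medians of the 8 arrays spanned 0.467 on the log2 scale, below a limit of 0.5, although they were lower in inflamed samples in all 4 pairs (mean 3.38 in inflamed and 3.69 in untreated samples). Therefore log2 values were taken as deposited, with neither pseudocount nor further normalization. Of 45037 probe sets beside controls, 34945 named 1 gene in GEO's platform annotation, 932 several and 9160 none. The gene IDs of 34741 of the 34945 were found in RefSeq and 0 symbols differed.

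Probe sets dimmer than the median one (mean log2 signal 3.30) were left out, and the probe set with the highest mean represented a gene, which left 10843 genes. Testing used limma 3.58.1 under R 4.3.3 (intensity trend, pair as a fixed block, two-sided, Benjamini-Hochberg over all genes). The pairing comes from the design text. Deviations from group means correlated at only 0.14, 0.01, 0.07 and 0.03 within pairs 1 to 4, across genes. Samples are pools, so p-values refer to pools, with 3 residual degrees of freedom before moderation, and the number of arrays limits the precision. The fit was tested on simulated data. A group at or under the ceiling on all its arrays has only a bound, taken from the bright group's mean and the other group's ceilings (or its own values where higher). This ceiling was chosen with values known. Members, gene lists, rules and alternatives were chosen with earlier results of these data known. Named were all 10 genes, up to 4 called genes per list by smallest p (up to 2 where none was called), sort and lymphatic markers, and the 3 genes nearest in pattern to each called one. Mmrn1, Reln, Tie1 and the single neutrophil, monocyte and macrophage, fibroblast, keratinocyte and blood endothelial markers were named after their values were seen. No column lacked a sample. Alternatives were quantile normalization, median centring, no intensity trend, no or a stricter filter, an offset of 16, no block, other uses of a gene's probe sets, and leaving out each pair. Promoter letters come from RefSeq on GRCm38.p6.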

Additional observations from a re-analysis of the deposited data

Results flagged for a closer look

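In 4 of the 48 groups of 4 arrays examined, 1 array lay apart from the other three by Dixon's criterion, which chance meets in about 1 of 20 groups. For Slc39a14 probe set 1427035_at, inflamed sample 3 was the lowest at 9.55 on the log2 scale, still above all untreated samples. For Slc39a6 probe set 1424674_at, inflamed sample 1 was the highest at 10.79. For Slc39a6 probe set 1441949_x_at, inflamed sample 2 was the lowest at 0.65, under its background ceiling, while the other three read 7.07 to 7.58. For Slc30a1 probe set 1436164_at, untreated sample 4 was the highest at 8.69.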

How the results depend on the processing

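The calls of Mt1, Mt2 and Slc39a14 held under all 13 alternatives run, with highest adjusted p-values of 0.0232, 0.0135 and 0.0426, each without the intensity trend. Their changes lay between 3.84 and 4.64, 4.66 and 5.18, and 2.45 and 4.26. Of the 10 genes, 5 were called higher under median centring, the additional ones being Slc39a1 and Slc39a8 (adjusted p = 0.0131 and 0.0469), and 3 when any pair was left out. Over all genes, 424 were higher and 328 lower as reported. These counts were 719 higher under median centring, 94 higher and 47 lower without the intensity trend, and 715 and 545 when every probe set was tested on its own. With median centring the median change over all genes was 0.22, against -0.09 as reported, and 76.0% of calls were higher, against 56.4%. Leaving out pairs gave 208 to 306 higher and 126 to 198 lower. Without the pair as a replicate block, 384 were higher and 301 lower and the same 3 of the 10 genes were called. The sign turned for Mtf1 when its probe sets were averaged (-0.00255) and for Slc30a1 without pair 2 (-0.055), whose change reached 0.46 without pair 4. The causes were not tested. Values under the background ceiling limit the size of changes for 1451612_at of Mt1, 1457770_at and 1425649_at of Slc39a14, Slc39a8 and Il6. The same holds for the markers Krt5, Krt10, Krt15, Selp and Car4.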
